A study of Mus musculus with 8 samples.

Results

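The sites described here are the stretches of the mouse genome where ChIP-seq gave reads for the mutant transcription factor KLF1-E339K-ER, away from promoters, while the wild type protein stood at the lowest value of the site table. They were selected on the deposited wild type concentration, which had to equal the lowest value of its column (-0.09 on the log2 scale), and on a distance of more than 1000 bp to the closest transcription start site (TSS). In all, 955 of the 5551 consensus sites (17.2%) were members. A further 469 sites had the same wild type value but lay within 1000 bp of a TSS, so the members made up 67.1% of the 1424 sites at that value.

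K1 cells are an immortalised erythroid line from Klf1-null mouse fetal liver. K1-E339K-ER cells carry KLF1-E339K joined to the hormone-binding part of the estrogen receptor, delivered by a retrovirus into the same Klf1-null background, and K1-ER cells carry wild type KLF1 in the same form. The labels give 1 ChIP and 1 input library of K1-E339K-ER cells from a single clone, induced for 3 h with 200 nM 4-hydroxytamoxifen (4-OHT), the ligand that brings the fusion protein into the nucleus. They also give 3 nascent-RNA (4sU) libraries of K1-E339K-ER cells with 200 nM 4-OHT and 3 of K1 cells without a construct, of which 2 are labelled with 200 nM 4-OHT and 1 with ethanol. Chromatin was precipitated with an antibody to the estrogen receptor part, replicates were pooled before the ChIP library was made, and the wild type ChIP libraries came from earlier work. The site table therefore holds 1 value for each protein and site, with no replicate error and unknown depth, and no binding value was tested.

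KLF1 is a zinc finger protein of red cell precursors that activates genes for globins, heme synthesis, the cell membrane and cell cycle exit. It reads a G-rich sequence, the reverse complement of the CACCC box, through 3 zinc fingers. E339 lies in the second finger, which contacts the middle of the motif, and the change to lysine is the mouse counterpart of the mutation found in congenital dyserythropoietic anemia type IV. Sites far from a TSS are commonly found in enhancers, which in erythroid cells are often shared with GATA1 and TAL1.

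The motif was searched as 9 letters on both strands within 50 bp of each site's midpoint. The pyrimidine form (NGGGCGGGG, NGGGCGTGG, NGGGTGGGG or NGGGTGTGG) has C or T at position 5, and the purine form (NGGGAGGGG, NGGGAGTGG, NGGGGGGGG or NGGGGGTGG) has A or G there. The study defined these forms with sites of this table among its evidence, so their presence here is not independent of that choice. The 4 members with the highest mutant concentration that held a purine match and no pyrimidine match, and the 2 with the reverse, are printed with each match in capitals. They are followed by the 2 highest members with neither form, in which capitals mark purine matches when any base is allowed at positions 7 and 8 (NGGGAGNNG or NGGGGGNNG). All are 101 bp of the plus strand of NCBIM37 (mm9), named by the closest gene, and windows that touch an annotated exon were left out.
Thra (chr11:98604227-98604327): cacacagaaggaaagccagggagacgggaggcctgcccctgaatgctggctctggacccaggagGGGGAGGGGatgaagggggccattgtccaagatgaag
Pou6f1 (chr15:100430553-100430653): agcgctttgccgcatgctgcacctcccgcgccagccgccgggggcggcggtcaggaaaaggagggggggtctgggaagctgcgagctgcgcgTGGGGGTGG
Msmb (chr14:32927300-32927400): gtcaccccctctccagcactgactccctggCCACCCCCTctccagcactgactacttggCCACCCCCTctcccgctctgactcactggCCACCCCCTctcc
Hip1r (chr5:124432977-124433077): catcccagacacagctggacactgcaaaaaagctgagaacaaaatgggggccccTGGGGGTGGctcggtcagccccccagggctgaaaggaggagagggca
Ctdsp2 (chr10:126417066-126417166): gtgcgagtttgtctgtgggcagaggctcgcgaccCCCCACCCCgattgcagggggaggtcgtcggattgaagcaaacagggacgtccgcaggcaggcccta
Kdm5b (chr1:136457779-136457879): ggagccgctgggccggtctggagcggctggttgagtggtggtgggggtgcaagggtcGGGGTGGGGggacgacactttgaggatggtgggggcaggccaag
Cry2 (chr2:92264166-92264266): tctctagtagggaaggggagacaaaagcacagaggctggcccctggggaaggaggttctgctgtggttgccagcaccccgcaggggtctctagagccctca
1700001L19Rik (chr13:68744734-68744834): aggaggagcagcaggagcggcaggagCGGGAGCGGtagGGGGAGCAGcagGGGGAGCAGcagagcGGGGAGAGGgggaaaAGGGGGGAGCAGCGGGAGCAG
The windows show how differently the motif was placed. Thra, Hip1r and Kdm5b held 1 intronic match each, the Msmb window held 3 copies of AGGGGGTGG on the minus strand within a tandem repeat, and the match of Pou6f1 lay at the end of its window. The 1700001L19Rik window was a purine-rich repeat with 57 of its bases in relaxed purine matches, and the Cry2 window, at the highest concentration of all members, had no relaxed purine match.

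The mutant concentration of the members ran from 3.73 to 7.87, with a median of 5.00 and quartiles of 4.62 and 5.52 (log2 of normalised reads, n = 955 sites). On the linear scale this was 13.3 to 234 normalised reads with a median of 32.0, against 0.940 for the lowest wild type value. The wild type values just above it were 0.50, 0.91, 1.23 and 1.5, or 1.41, 1.88, 2.35 and 2.83 normalised reads, held by 259, 224, 160 and 128 sites. The members thus stand at the bottom of a ladder of small counts, and the step to the next wild type value is below 1 normalised read. The mutant lay 3.82 to 7.96 above the wild type on the log2 scale. Concentrations of at least 6 were seen at 111 members (11.6%) and of at least 7 at 19 (1.99%).

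The members' median mutant concentration, 5.00, was below that of each set most like them and above that of all sites. The 1366 non-promoter sites where the mutant was higher but the wild type stood above its lowest value had a median of 5.41, the 469 promoter sites at the same wild type value 5.12, and all 5551 sites 4.86. The next wild type step, 0.50, held 161 non-promoter sites with a median mutant concentration of 5.12. The promoter sites at the lowest wild type value had mutant values down to -0.38, the lowest of all sites. The lowest wild type value alone therefore did not guarantee reads in the mutant.

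**Figure D1:**
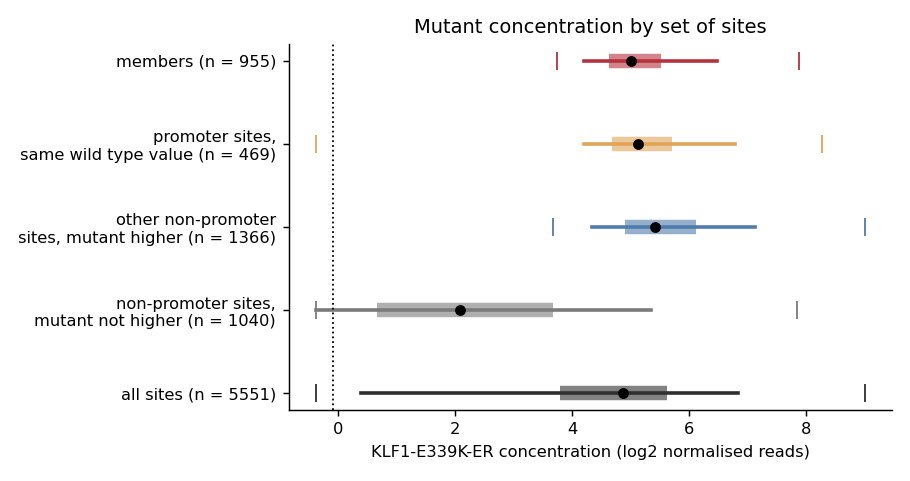
Mutant concentration (log2 normalised reads, horizontal axis) in each set of sites. Dots are medians, thick bars the quartiles, thin lines the 5th to 95th percentile and ticks the extremes over sites; the dotted line is the lowest wild type value, -0.09. The members lie between 3.73 and 7.87, below the median of the other non-promoter sites with higher mutant (5.41) at their own median of 5.00.

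The 10 members with the highest concentration had values of 7.35 to 7.87 and widths of 317 to 972 bp, and 7 of them lay within 5000 bp of their TSS. The highest, 7.87, was at chr2:92263933-92264499 in an intron of Cry2, a repressor of the circadian clock, 10010 bp downstream of the TSS. An intronic site of 1700001L19Rik (chr13:68744568-68745001) followed with 7.70. The site of Thra, the thyroid hormone receptor alpha (chr11:98604119-98604435), had 7.61 at 1090 bp downstream. That of Pou6f1, a POU homeobox factor (chr15:100430400-100430807), had 7.59 at 13808 bp upstream. These leading sites were in introns except for Pou6f1, which was intergenic.

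The remaining 6 lay between 1001 and 3814 bp from their TSS. Zbtb9, a BTB zinc finger gene, had 7.48 at 1745 bp upstream, in the widest site of all members (972 bp). Ctdsp2, a phosphatase of the RNA polymerase II tail family, had 7.47 in an intron at 1343 bp. Tsc22d4, of the TSC22 leucine zipper family, had 7.45 at 1001 bp, the member nearest to the distance limit. Kdelr1, the receptor that returns proteins to the endoplasmic reticulum, had 7.43, Midn, the midnolin gene, 7.36, and Mbd6, a methyl-CpG-binding domain gene, 7.35. Of the 10 sites, 3 held the purine form, 1 the pyrimidine form and 6 neither, and 8 held the purine form once any base was allowed at positions 7 and 8. A GATA match was in 0 of the 10.

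The distance limit fell within a continuous series. The members just inside it were Tsc22d4 (1001 bp, 7.45), AK010878 (1016 bp, 4.42) and Atxn7 (1027 bp, 4.67). The sites just outside were Mepce (998 bp, 5.91), Syne3 (992 bp, 4.83) and Sall2 (985 bp, 4.28), all at the same wild type value. The label of these sites as away from promoters held against the TSS named in the table, but 119 members (12.5%) lay within 1000 bp of some transcript start of GENCODE M1, and 66 (6.91%) within 1000 bp of a protein-coding one. For 636 members (66.6%) the named TSS was within 10 bp of a GENCODE M1 start of that gene, and for 85 (8.90%) the symbol was not in that annotation.

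Most members lay in or near genes. The midpoint was in an intron at 515 sites (53.9%, 95% Wilson interval 50.8 to 57.1, which like every interval here covers counting error only, since sites are not replicates). Another 336 (35.2%) were intergenic, 67 (7.02%) in a UTR or non-coding exon and 37 (3.87%) in a coding exon. Over all 5551 sites, promoters included, introns held 46.8%, and over the other non-promoter sites with higher mutant 51.7%, whose interval of 49.0 to 54.3 overlaps that of the members. In 359 of the 515 intronic members (69.7%) the host gene was also the gene of the closest TSS, and in 156 (30.3%) the site lay in another gene. Concentrations differed little between these places, with medians of 4.99 in introns, 4.98 in intergenic sequence, 5.00 in coding exons and 5.13 in UTRs and non-coding exons.

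Measured to the closest TSS, the members' distances had a median of 12412 bp, quartiles of 4693 and 33063 bp and a maximum of 772824 bp. Within 10 kb lay 426 members (44.6%, 41.5 to 47.8), and beyond 100 kb 51 (5.34%). Between 1 and 2 kb there were 84 members (8.80%, 7.16 to 10.8), against 13.3% (11.6 to 15.2) of the other non-promoter sites with higher mutant. The 1040 non-promoter sites where the mutant was not higher had 9.71% there (8.06 to 11.7). Members were upstream of the TSS at 395 sites (41.4%) and downstream at the rest. The median concentration was 5.13 between 1 and 2 kb, 4.97 between 10 and 50 kb and 4.83 beyond 100 kb.

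**Figure D2:**
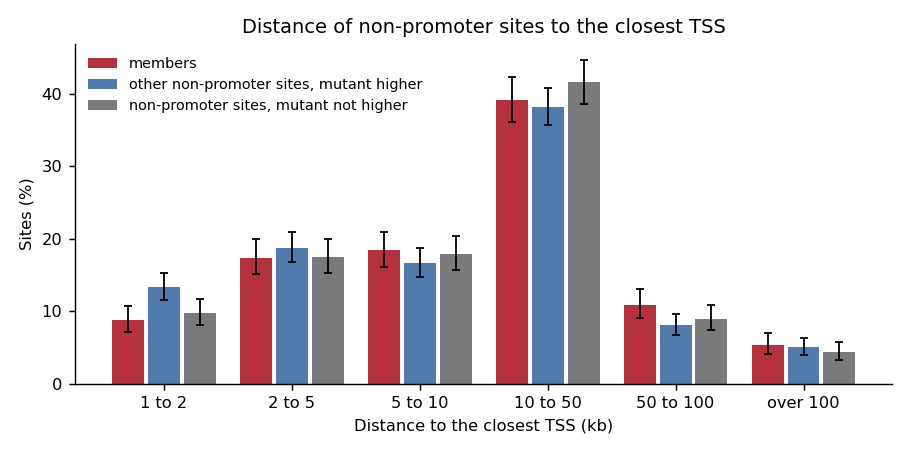
Share of sites (%, vertical axis, with 95% Wilson intervals as error bars) in 6 ranges of distance to the closest TSS (kb, horizontal axis) for members and the other non-promoter sites. All 3 sets peak at 10 to 50 kb, with 39.2% of members there, and differ most at 1 to 2 kb, where members have 8.80% and the other sites with higher mutant 13.3%.

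The members spread over every chromosome in the table, from 17 on X to 110 on chromosome 11, and made up between 15.1% and 20.04% of the sites of each. Chromosome 15, singled out after its values were seen, had the highest median concentration. Its 63 members had a median of 5.43 (95% interval of the median 5.23 to 5.68), whereas the medians of the other chromosomes lay between 4.74 (chromosome 19) and 5.22 (chromosome 16), and the 892 members off chromosome 15 had 4.97. All non-member sites with higher mutant, promoters included, had a median of 5.54 on chromosome 15, close to the 5.57 of chromosome 3.

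The purine form was found in 496 members (51.9%, 48.8 to 55.1) and the pyrimidine form in 193 (20.2%, 17.8 to 22.9). In windows of the same length 200 to 300 bp from the midpoints the shares were 9.90% and 7.38%. Over all sites the 2 forms were about equally common, at 35.5% and 35.3%, and in the non-promoter sites where the mutant was not higher the order was the reverse, at 19.4% (17.1 to 21.9) and 58.5% (55.4 to 61.4). Among sites more like the members, the purine form was in 43.7% (39.3 to 48.2) of the promoter sites at the same wild type value and in 43.2% (40.6 to 45.8) of the other non-promoter sites with higher mutant. Both intervals lie below that of the members. The pyrimidine form was in 17.3% (14.1 to 21.0) and 24.9% (22.7 to 27.3) of these. Members with both forms numbered 139, with the purine form alone 357, with the pyrimidine form alone 54 and with neither 405 (42.4%, 39.3 to 45.6). The share with neither was nearly the same over all sites, at 42.2%, and was 47.0% and 49.0% in the other non-promoter sites with higher mutant and in the promoter sites.

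Purine matches gathered at the site midpoint. In the 20 bp on either side of it there were 24.2 and 28.6 purine matches per kb in the members, compared with 4.08 and 4.19 pyrimidine matches. At the far edge of the profile, 290 bp away, the purine density was 1.88 per kb. Overlapping matches in G runs each count here, and up to 20 matches fell in a single window, with 250 members holding 1 purine match and 246 holding more. Over the 606 members with a purine match within 100 bp, the nearest lay a median of 15.0 bp from the midpoint (quartiles 6.25 and 35.0 bp).

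**Figure D3:**
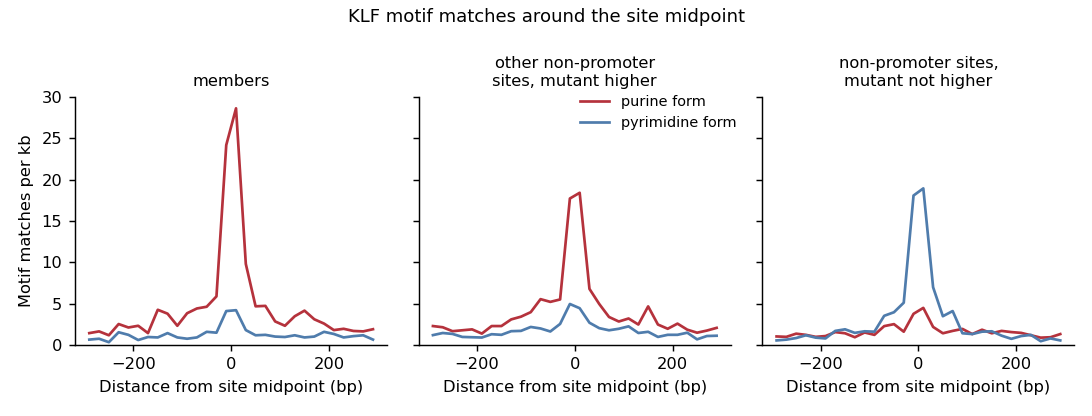
Matches per kb (vertical axis) of the purine and pyrimidine forms in 20 bp bins of distance from the site midpoint (bp, horizontal axis), for members and the other non-promoter sites. The purine line peaks at 28.6 per kb in the members and 18.4 in the other sites with higher mutant, and the pyrimidine line at 18.9 in the sites where the mutant is not higher.

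Among the purine matches, G at position 5 was more frequent than A. A G there was found in 363 members (38.0%, 35.0 to 41.1), an A in 194 (20.3%, 17.9 to 23.0), a T in 153 (16.0%, 13.8 to 18.5) and a C in 43 (4.50%, 3.36 to 6.01). The G share was lower in both like sets, with 27% (24.7 to 29.4) of the other non-promoter sites with higher mutant and 27.9% (24.1 to 32.2) of the promoter sites, whereas the A share hardly differed, at 20.4% and 21.3%. Where the mutant was not higher, G was found in 5.87% and C in 33.6%.

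By single words, the uninterrupted run GGGGGGGGG was in 148 members (15.5%), in 409 of all sites (7.37%), in 8 of the 1040 non-promoter sites where the mutant was not higher (0.769%) and in 1.47% of the flanking windows of the members. TGGGGGTGG was in 92 members (9.63%) and 4.83% of all sites, and GGGGAGGGG in 88 (9.21%) and 7.66%. The purine word AGGGAGTGG ran the other way, in 15 members (1.57%) and 52 of the sites where the mutant was not higher (5%). The most common pyrimidine word, GGGGTGGGG, was in 109 members (11.4%) and in 105 of the sites where the mutant was not higher (10.1%), so this T form was about as common in both. By contrast AGGGTGTGG was in 4 members (0.419%) against 49 (4.71%), TGGGTGTGG in 3 (0.314%) against 82 (7.88%), and AGGGCGGGG in 7 (0.733%) against 73 (7.02%).

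The 405 members with neither form were examined for the words they shared, a search added after seeing the data. The 8-letter word with the largest excess over their own flanks was GGGAGGAG, in 95 of them (23.5%) against 2.96% of 810 flanking windows, followed by GGGGGAGG (17.3% against 3.09%) and GGGGAGGA (14.8% against 1.60%). GGGAGGAG was not limited to these sites: it was in 18.5% of all members (16.2 to 21.1), 20.9% (18.8 to 23.1) of the other non-promoter sites with higher mutant, 16.6% of the promoter sites at the same wild type value and 15.0% of all sites. The words keep GGG, a purine and G, and each departs from the purine form at position 7 or position 8. With any base allowed at those positions, 290 of the 405 (71.6%, 67.0 to 75.8) held a purine form, against 28.3% of the flanks, and 84 (20.7%, 17.1 to 25) a pyrimidine form, against 15.8%. In these members A and G at position 5 were about equally common, at 48.6% and 46.2%.

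Over all members the relaxed purine form was in 829 (86.8%, 84.5 to 88.8) against 25.5% of the flanks, and the relaxed pyrimidine form in 357 (37.4%, 34.4 to 40.5) against 14.9%. Members with the relaxed pyrimidine form and no relaxed purine form numbered 30 (3.14%), and 96 (10.1%) had neither. The relaxed purine form was about as common in the promoter sites at the same wild type value, at 84.4% (80.9 to 87.4), and was in 78.9% (76.7 to 81.0) of the other non-promoter sites with higher mutant and 68.9% of all sites. In the non-promoter sites where the mutant was not higher, it was in 39.5% (36.6 to 42.5) and the relaxed pyrimidine form in 76.1% (73.4 to 78.6).

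**Figure D4:**
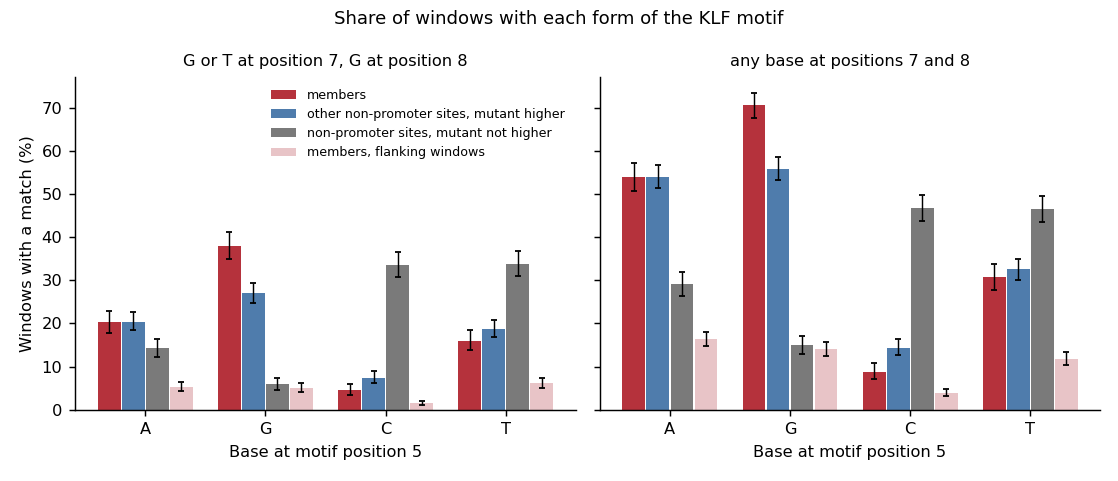
Share of 101 bp windows (%, vertical axis, with 95% Wilson intervals as error bars) holding the motif with each base at position 5 (horizontal axis), with G or T at position 7 and G at position 8 (left) and with any base at both (right). Members have G in 38.0% (left) and 70.6% (right) of windows, against 5.08% and 14.0% in their flanks.

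Within 50 bp of the midpoint, the motif did not become more common with concentration. Site widths vary, and shares over the whole site were not split by concentration. In the 240 members up to the lower quartile of mutant concentration the purine form was in 59.6% (53.3 to 65.6), and in the 236 above the upper quartile in 45.8% (39.5 to 52.1). The share with neither form was 35.8% (30.0 to 42.1) and 47.9% (41.6 to 54.2) in these groups. The G form was in 46.7% (40.5 to 53.0) of the low and 33.5% (27.8 to 39.7) of the high members. For the A form the shares were 21.7% (16.9 to 27.3) and 16.5% (12.3 to 21.8). The relaxed purine form was at 89.6% (85.1 to 92.8) and 83.5% (78.2 to 87.7). The low and high intervals overlapped for the A form, for neither form and for the relaxed purine form, but not for the purine and G forms. Members with neither form had a median concentration of 5.09 (5.01 to 5.15), those with a purine form alone 4.9 (4.83 to 5.00), and those with a run of 9 G 4.93 (4.80 to 5.07). All of these values come from the contrast that chose the members.

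GATA sequences (AGATAA or TGATAA), the target of GATA1, were in 157 members (16.4%, 14.2 to 18.9), against 7.59% of their flanks. The share was higher in the other non-promoter sites with higher mutant, at 25.2% (23.0 to 27.6), and much lower in the promoter sites at the same wild type value, at 5.97% (4.16 to 8.49). It was 18.1% (15.9 to 20.5) where the mutant was not higher and 14.5% over all sites. Members with a GATA match lay farther out, at a median of 18701 bp against 11364 bp for the rest, and had a median concentration of 4.93 against 5.02. Of the 157, 82 also held the purine form.

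The other sequences searched had shares that were lower than in the flanks or had intervals that overlapped them. E-boxes (CAGCTG or CAGATG), which TAL1 and its partners can bind, were in 16.0% of members (13.8 to 18.5) and 13.5% of flanks. The RUNX word TGTGGT was in 5.34% and 6.60%, compared with 10.5% (8.76 to 12.5) of the sites where the mutant was not higher, a word that shares TGTGG with the pyrimidine form NGGGTGTGG. ETS (GGAAGT) was in 4.71% against 5.60%, the AP-1/NF-E2 word (TGAGTCA or TGACTCA) in 2.09% against 1.31%, the CCAAT box in 6.49% against 11.6% and TATAAA in 1.05% against 3.40%. Over all sites these shares were 12.7% for E-boxes, 5.67% for RUNX, 5.58% for ETS, 2.04% for AP-1/NF-E2, 8.02% for CCAAT and 1.17% for TATAAA. The NRF1 word was in 0 of 955 members, with an upper bound of 0.401%.

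In base composition the members were like other distal sites. Their central 101 bp had a median GC content of 61.4% (quartiles 57.4 and 65.3), the same median as the other non-promoter sites with higher mutant, whereas the promoter sites at the same wild type value had 67.3%. The ratio of observed to expected CpG over 501 bp, which is near 1 in CpG islands and low in most of the genome, was 0.186 (0.114 and 0.283), against 0.219 in the other non-promoter sites with higher mutant and 0.652 in the promoter sites. Site widths were 302 to 972 bp with a median of 324 bp.

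The 955 members had 822 closest genes, of which 719 had 1 member, 85 had 2 and 18 had 3 or more. Members were mostly solitary. When members within 10 kb of each other were joined, 801 stood alone, 65 formed pairs and 8 formed runs of 3, and no run was longer. Within 10 kb of 355 members (37.2%) there was another consensus site of any kind, and within 10 kb of 90 members (9.42%) a site where the mutant was not higher. Of the 822 closest genes, 54 also had a promoter site at the lowest wild type value, which is 6.57% of these genes and 12.2% of the 441 genes with such a promoter site. Over all sites, 441 of the 3670 closest genes had such a promoter site. A site where the mutant was not higher had the same closest gene for 160 of the 822 (19.5%), and the share over the closest genes of all sites is not given here.

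Gse1 had the most members, 10, spread over 169 kb (chr8:122906473-123075317) in introns of Gse1 and of Gm20388, which overlaps it. Their mutant concentrations were 4.77 to 6.50 with a median of 5.84. Gse1 encodes a coiled-coil protein of chromatin complexes. It was the closest gene of 32 sites over 217 kb in all, and the mutant was higher at 29 of them. These 29 include the 10 members, which the rule chose at the lowest wild type value. Among all non-promoter sites, the mutant was higher at the 955 members and at 1366 others, and not higher at 1040. Of the 10 members, 5 held the purine form, 3 the pyrimidine form and all 10 the relaxed purine form. The other sites of the locus had wild type concentrations of up to 7.56 and mutant concentrations of 3.52 to 8.34, so members sat among sites with wild type reads.

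**Figure D5:**
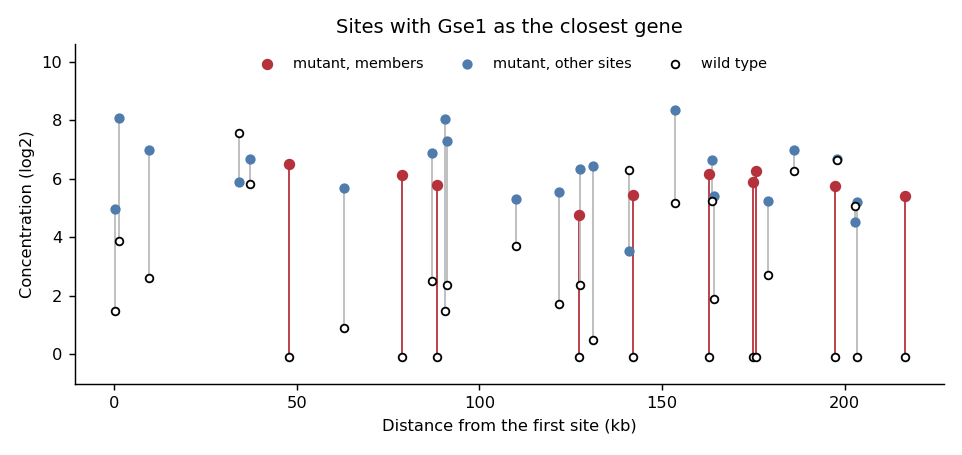
Concentration (log2, vertical axis) of the mutant (filled) and the wild type (open) at the 32 sites with Gse1 as the closest gene, by distance from the first site (kb, horizontal axis); lines join the values of a site. The wild type is at -0.09 at the 10 members (red), whose mutant values run from 4.77 to 6.50.

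Bcl9l, a coactivator of beta-catenin, Cstad, Rara, the retinoic acid receptor alpha, Sema3f, a secreted semaphorin, and Triobp, an actin-binding protein, had 4 members each. The 4 sites of Rara (chr11:98803451-98826970) were all intronic, with 4.43 to 5.23. Those of Sema3f had 4.76 to 6.38 and those of Triobp 5.06 to 6.20, and none of these 8 sites held the purine form. Bcl9l had 4.85 to 5.69 with the purine form at 3 of 4 sites, and Cstad 4.66 to 5.95 with it at 2.

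The genes with 3 members were Ahdc1, Casz1, Cxxc5, Flnc, Gm10818, Gm15417, Grhl3, Mir378b, Mxi1, Ptpn1, Tcf3 and Wnt10a. Of these, Casz1, Cxxc5, Grhl3 and Tcf3 encode transcription factors or zinc finger proteins, Mxi1 a MAX partner that opposes MYC, Ptpn1 a tyrosine phosphatase, Flnc a filamin and Wnt10a a WNT ligand. The highest site among them was that of Wnt10a at 6.59 and the lowest that of Mir378b at 4.18, which lay in an intron of Msi2 at 119670 bp. Ptpn1 had the purine form at all 3 of its sites (5.11 to 6.49), whereas Grhl3, Gm10818 and Wnt10a had it at none. In the 66 members of the 18 genes the purine form was in 27.

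Few members lay closest to the genes of a fixed erythroid list, and red cell genes outside the list were not counted. Of 57 erythroid genes, as matched to the sites, 38 had a site of any kind in the table. Of these, 5 had a member, making 5 of 955 members (0.524%) against 86 of all 5551 sites (1.55%). These counts are lower bounds, since they leave out the member named Sptb, in an intron of the listed gene Spnb1 (chr12:77785455-77785756, 5.94). All sites, here and for the other lists, include promoter sites and sites with higher wild type values, which the rule leaves out of the members. Slc4a1, the anion exchanger band 3, had 5.21 at chr11:102234998-102235321, 8565 bp upstream, with both forms in its window. Uros and Fech, enzymes of heme synthesis, had 5.18 in an intron and 5.16 at 1267 bp upstream, again with both forms. Zfpm1, the GATA1 partner FOG1, had 4.77 at 161389 bp, and Gfi1b, a repressor needed for red cells and platelets, had 4.50 in an intron, both with the purine form alone.

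Of 28 cell cycle genes, Ccne1 (5.34, 21512 bp downstream) and Ccnd3 (5.09, in an intron at 1046 bp), which encode G1 cyclins, had 1 member each, and the list held 0.209% of members and 0.504% of all sites. Of the 32 haematopoietic transcription factors, 3 had members. Tcf3, which encodes the E-box factors E12 and E47, had 3 (4.79, 5.80 and 5.84), Ikzf1, encoding IKAROS, had 1 (4.96) and Runx1 had 1 (4.45, in an intron at 40573 bp). This was 0.524% of members and 0.468% of all sites. Among KLF and SP factors, Klf16 had an intronic member with 6.96 over a run of 9 G, and Klf13 a member with 5.76 at 50182 bp, and the list held 0.209% of members and 0.613% of all sites. Of a list of 15 genes that appear in the study's text or in its supplementary gene tables, Asic4 had 2 members (5.56 and 5.83) and Creb3l1 1 (4.67), making 0.314% of members and 0.703% of all sites. That list is not independent of these samples. Together the lists, as matched and without the member named Sptb, held 17 members with 4.45 to 6.96. Of these, 8 held the purine form, 15 the relaxed purine form and 0 a GATA match.

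The nascent RNA tables give 1 mean per gene over all libraries of a fit (log2 CPM), K1 cells included, so they show which closest genes were transcribed in this line and not how they changed. Fewer transcribing cells and less RNA per cell cannot be told apart in such bulk samples. The erythroid label held by these means, with all 12 erythroid markers listed. Gata1 was at 9.79, Tal1 at 9.48, Zfpm1 at 10.80 and Epor at 8.31, whereas the later markers Alas2 (5.29) and Slc4a1 (5.41) and the adult globin genes Hba-a1 (3.79) and Hbb-b1 (3.87) were lower. Of the macrophage markers, Cd68 (0.24) and Emr1 (3.69) were listed, of the megakaryocyte markers Itga2b (5.3) and Gp9 (1.79), and of the mast cell markers Kit (6.95), which red cell progenitors also express. The 5 lymphoid and 4 hepatocyte markers, with Csf1r, Lyz2 and Pf4, were not listed.

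Of the 822 closest genes, 597 (72.6%, 69.5 to 75.6) were listed among the 11364 genes of the table. The share was 77.9% (75.3 to 80.3) for the other non-promoter sites with higher mutant, 78.4% (75.5 to 80.9) for those where the mutant was not higher and 91.6% (88.6 to 93.9) for the promoter sites at the same wild type value. By distance, 84.5% of closest genes were listed at 1 to 2 kb and 62.5% beyond 100 kb. Counted by site, 703 members (73.6%) had a listed closest gene, against 84.6% of all sites. Listed closest genes had a median expression of 6 (quartiles 3.6 and 7.24), close to the 5.93 over the closest genes of all sites. It was 6.28 for the promoter sites, 6.16 for the other non-promoter sites with higher mutant and 6.24 for those where the mutant was not higher, and 5.27 over all genes of the expression data. Of the 18 genes with 3 or more members 14 were listed, from Gse1 at 10.97 and Casz1 at 8.52 down to Sema3f at 1.22 and Cxxc5 at 0.13.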

How the data were processed

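ChIP and 4sU-RNA libraries were sequenced on Ion Proton and mapped to mm9 by the authors, with TMAP for ChIP and TopHat2 2.0.10 (per the submitters' processing notes) and TMAP for RNA. Duplicate and multi-mapped ChIP reads were removed, peaks were taken from MACS2 and GEM, and DiffBind made the consensus sites. The deposited site table gives concentrations that the authors computed as log2 normalised reads, with positions and TSS distances in bp. The deposited gene tables give log2 CPM, the authors' mean over all libraries. Their columns of fold changes, test statistics, p-values and FDR were not used.

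Members and gene lists were chosen with earlier results of these data known. No test was run, because the rule uses the binding contrast itself and the tables hold no values per replicate. Motifs were counted in the NCBIM37 sequence with Python 3.11.15 (pandas 2.3.3, numpy 2.4.6, scipy 1.17.1), tested on simulated sequences. Midpoints were annotated with GENCODE M1 in the order coding exon, UTR or non-coding exon, intron, intergenic. The 3 sets compared are the promoter sites at the same wild type value (469), other non-promoter sites with higher mutant (1366) and non-promoter sites where the mutant is not higher (1040). Shares carry 95% Wilson intervals, and medians carry order-statistic intervals. Symbols were matched to the gene tables directly or through RefSeq synonyms. Sites named are the 10 members of highest mutant concentration, members closest to a listed gene, genes with 3 or more members, and the 3 sites on each side of the distance limit. A search with any base at positions 7 and 8, 8-letter words and runs of 9 G were added after seeing the data. Alternatives were other distances, wild type values, windows, a minimum concentration and 1 member per run. Depth is unknown, so precision between libraries cannot be given.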

Additional observations from a re-analysis of the deposited data

How the results depend on the processing

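Of 60 alternative values, 48 stayed within the interval of the value they vary (for the number of members, within 1.5 times) and 12 moved. Those that moved came with the search window or with a stricter concentration. Within 25 bp, within 100 bp and over the whole site, the purine form was in 39.4%, 63.5% and 70.4% of members, the pyrimidine form in 15.1%, 27.4% and 36.2% and neither form in 56.0%, 30.6% and 22.9%, as fewer or more bases were searched. With a mutant concentration of at least 5 (480 members), the purine form was in 46.9%, neither form in 47.3%, and 48.5% lay within 10 kb of the TSS; the cause was not tested. The number of members was 705 to 1106 for distance limits of 5000 to 500 bp and 1116 with the next wild type value. Keeping members over 1000 bp from any GENCODE M1 start (836) or off chromosome 15 was chosen after seeing the data and moved no value. No paired analysis was possible because the tables hold no values per replicate. A share of masked repeats was not computed, since the genome sequence used marks none. The lowest wild type value is the bottom of the table's scale, and whether it stands for no reads was not tested.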
